A study of Mus musculus with 8 samples.

Results

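Dbp, Tef and Nfil3 are transcription factors of the basic leucine zipper class, and their transcripts were followed over the day in colonic crypts of wild-type mice. They were picked by gene symbol, with no measured value in the rule but with earlier results of these data known. They make up 3 of the 14247 genes in the expression table. The mice were on a C57BL/6 background and no treatment is stated for them. Crypts, the epithelial pits of the colon, were collected at zeitgeber times ZT0, ZT6, ZT12 and ZT18, where ZT0 is lights on and ZT12 is lights off. Their RNA was sequenced in 2 libraries per time point, 8 in all. The labels do not say how many animals went into a library or how the libraries of a time point differ, and the number of mice that the study's text gives for its groups is not the number of libraries here, so p-values measure the spread between these samples, which may be technical.

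DBP and TEF belong to the PAR bZIP family, named for a proline and acidic amino acid rich domain, and activate transcription from a DNA element called the D-box. NFIL3, also called E4BP4, binds the same element and represses. In the known clock circuit, Dbp and Tef are driven through E-boxes by the BMAL1 and CLOCK pair, while Nfil3 is repressed by the REV-ERB receptors and activated by the ROR receptors through a shared element.

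The coding stretch that the 3 genes share most was found by comparing their GENCODE M21 coding sequences, and it is shown because it encodes part of the basic region that touches DNA. It is the stretch of 60 bases with the most positions identical in all 3 genes, 33 of 60, and those positions are in capitals. It covers coding bases 748 to 807 of 975 in Dbp, 676 to 735 of 903 in Tef and 202 to 261 of 1386 in Nfil3, so that it lies late in the coding sequence of the activators and early in that of the repressor.
Dbp: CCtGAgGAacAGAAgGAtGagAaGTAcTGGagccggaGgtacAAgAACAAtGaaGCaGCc
Tef: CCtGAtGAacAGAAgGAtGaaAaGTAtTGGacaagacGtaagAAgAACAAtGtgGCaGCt
Nfil3: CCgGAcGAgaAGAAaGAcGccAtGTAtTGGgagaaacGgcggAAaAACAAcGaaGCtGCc
Within this stretch Dbp and Tef were identical at 46 of 60 bases, Dbp and Nfil3 at 37 and Tef and Nfil3 at 38. Over a longer alignment of 363 coding bases Dbp and Tef were 69.1% identical, whereas Nfil3 aligned with Dbp over 68 bases only.

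Promoter sequences from RefSeq on GRCm38.p6, running from 250 bases before to 50 bases after each annotated start, were searched on both strands for the E-box CACGTG, the REV-ERB and ROR core TAGGTCA, and the D-box forms TTATGTAA and TTACGTAA. Tef has 2 such promoters and each holds 1 E-box, a motif found in 7.15% of the 32851 mouse promoters searched. The Nfil3 promoter holds 1 REV-ERB and ROR core, on the opposite strand, which 2.61% of promoters have. The windows around these matches are shown because their letters are those of the elements named above, with the matched letters in capitals. The first is chr15:81802534-81802563 on the plus strand, inside an annotated exon, and its match starts 127 bases upstream of one Tef start. The second, chr15:81811219-81811338 on the plus strand, lies outside annotated exons, with its match starting 138 bases upstream of the other. The third is chr13:52981040-52981069 on the minus strand, inside the annotated Nfil3 exon, and its match starts 12 bases upstream of the RefSeq start.
Tef, first start: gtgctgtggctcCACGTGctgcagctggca
Tef, second start: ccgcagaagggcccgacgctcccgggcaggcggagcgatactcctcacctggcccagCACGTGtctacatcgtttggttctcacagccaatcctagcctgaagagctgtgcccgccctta
Nfil3: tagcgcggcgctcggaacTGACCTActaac
None of these letters occurred in the Dbp promoter window, and no D-box form, present in 1.06% of promoters, occurred in any of the 4 windows. A match describes the letters only and is not a measured binding site.

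The libraries held between 14722342 and 25159440 reads, of which 6.68% to 22.2% came from mitochondrial genes. Values below are normalised counts, meaning read counts divided by a size factor for each library, and a count of 0 would allow up to 2.41 to 3.70 normalised counts. All 9 epithelial markers examined, such as Epcam and Vil1, were in the table, with a summed level of 240381 to 320200 normalised counts. Replicate 1 at ZT12 stood apart in stromal markers, with summed levels of 3388 for smooth muscle and 2329 for fibroblasts. Replicate 2 at ZT12 had 204 and 148 for the same lists, and the other time points reached at most 88.6 for smooth muscle. Endothelial markers were also highest in the ZT12 libraries, at 331 and 194 against 27.3 to 127 elsewhere. Replicate 2 at ZT0 stood apart in markers of B and plasma cells (2340.3 against 36.8 in replicate 1), myeloid cells (1958 against 809.5) and fibroblasts (648 against 17.9). The lowest mitochondrial shares were those of the ZT12 libraries, 6.68% and 7.85%, against 9.80% to 22.2% elsewhere.

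Dbp, a PAR bZIP activator and classical output of the clock, rose from near the bottom of the measured range at ZT0 to a high level at ZT12. The gene (ENSMUSG00000059824) spans chr7:45705088-45710203 on the plus strand. The ZT0 libraries held 26.8 and 21.5 normalised counts of Dbp, the ZT6 libraries 482 and 361, the ZT12 libraries 1593 and 1113, and the ZT18 libraries 89.7 and 88.5. No pair of time points overlapped, and the order was ZT12, ZT6, ZT18 and ZT0 from high to low. For any single pair, 13.6% to 23.5% of all genes tested separated in a given direction. The mean at ZT12 was 1353 ± 339 (SD, n = 2), which is 56.0 times the 24.1 ± 3.79 (SD, n = 2) at ZT0. These values rested on 23 to 1701 reads per library.

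On the scale of log2(normalised count + 1), Dbp was higher at ZT12 than at ZT0 by 5.74 (SE 0.30, limma adjusted p = 0.000137). It was also higher at ZT6 than at ZT0 by 4.06 (SE 0.30, limma adjusted p = 0.00288). From ZT12 to ZT18 it fell by 3.89 (SE 0.30, limma adjusted p = 0.00425). Both the rise and the fall therefore passed the test, although the rise to ZT6 had an adjusted p of 0.0512 to 0.144 without replicate 2 of ZT0 or without either ZT6 library in turn, and the fall one of 0.0778 without replicate 2 of ZT12. The remaining Dbp steps did not pass in limma, with log2 differences of 1.67 between ZT12 and ZT6 (limma adjusted p = 0.311), 1.85 between ZT18 and ZT0 (adjusted p = 0.239) and -2.21 between ZT18 and ZT6 (adjusted p = 0.0592). DESeq2 called these 3 steps (adjusted p = 2.11e-05, 0.000365 and 2.18e-09 in that order), and edgeR called the last (adjusted p = 0.0321). Dbp shares 539 exonic bases, 18.01% of its exonic length, with Sphk2 on the opposite strand, and whether counting used strand is not stated in the sources used here. Sphk2 lay between 1274 and 1931 normalised counts in all libraries, and its log2 difference between ZT12 and ZT0 was -0.05 (SE 0.19).

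Tef, the second PAR bZIP activator, was also highest at ZT12 and lowest at ZT0, over a narrower range. The gene (ENSMUSG00000022389) spans chr15:81802421-81826863 on the plus strand. Tef stood at 237 and 390 normalised counts in the ZT0 pair, 1259 and 1354 in the ZT6 pair, 4001 and 3239 in the ZT12 pair and 1830.2 and 1182 in the ZT18 pair. The ZT12 libraries were the highest and the ZT0 libraries the lowest, while those of ZT6 and ZT18 overlapped. The mean was 3620 ± 539 (SD, n = 2) at ZT12, 11.5 times the 314 ± 108 (SD, n = 2) at ZT0.

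Tef was higher at ZT12 than at ZT0 by 3.56 on the log2 scale (SE 0.28, limma adjusted p = 0.00186), and this was its only step that passed in limma on all libraries at the chosen settings. The rise from ZT0 to ZT6 was 2.10 (SE 0.28, limma adjusted p = 0.0581), and the difference between ZT18 and ZT0 was 2.27 (SE 0.28, limma adjusted p = 0.0841). Neither passed. The libraries did not overlap in either comparison, but 18.9% and 13.6% of all genes tested were also higher without overlap there. The rise to ZT6 passed after quantile normalisation (limma adjusted p = 0.0477), without replicate 1 of ZT18 (0.0361) and without replicate 2 of ZT18 (0.030). The change from ZT12 to ZT18 was -1.29 (SE 0.28, limma adjusted p = 0.391), and ZT12 and ZT6 differed by 1.46 (adjusted p = 0.469, and 0.0224 on the 4 compared libraries alone). DESeq2 called these 4 further steps, with adjusted p-values of 9.22e-09 for the rise to ZT6, 2.17e-10 between ZT18 and ZT0, 0.00577 between ZT18 and ZT12 and 0.000435 between ZT12 and ZT6. Between ZT18 and ZT6 the difference was 0.17 (adjusted p = 0.949), and it was -0.14 without replicate 1 of ZT18.

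Both activators were highest at ZT12, where the smooth muscle and endothelial markers were highest and the mitochondrial share was lowest, and the part of these in the Dbp and Tef values was not tested. Replicate 1 had the higher value of the pair in Dbp and in Tef. Without it, the log2 difference between ZT12 and ZT0 was 5.48 for Dbp and 3.41 for Tef. Without replicate 2 of ZT0 it was 5.58 for Dbp and 3.92 for Tef, and when only non-mitochondrial reads set the library size it was 5.70 and 3.52. In bulk samples such as these, fewer cells of a type and less RNA per cell cannot be told apart.

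Nfil3, the repressor of the same element, had the opposite course, with its lowest values at ZT12. The gene (ENSMUSG00000056749) spans chr13:52967209-52981073 on the minus strand. Normalised counts of Nfil3 went from 156 and 180.0 in the ZT0 libraries to 59.1 and 79.4 at ZT6 and 17.8 and 26.5 at ZT12, then back to 144 and 228 by ZT18. The ZT0 and ZT18 libraries overlapped and lay above those of ZT6, which lay above those of ZT12. The mean at ZT18, 186 ± 59.4 (SD, n = 2), was 8.38 times the 22.2 ± 6.17 (SD, n = 2) at ZT12, on 19 to 283 reads per library.

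No Nfil3 step passed the limma test over all genes. The difference between ZT12 and ZT0 was -2.89 on the log2 scale (SE 0.41, limma adjusted p = 0.0596, unadjusted p = 5.3e-05), and that between ZT18 and ZT12 was 2.999 (SE 0.41, limma adjusted p = 0.0746). The first had an adjusted p of 0.0484 without replicate 1 of ZT18 and of 3.39e-06 in DESeq2 on the recovered reads, and DESeq2 also called the second (adjusted p = 7.97e-07). ZT6 and ZT0 differed by -1.28 (limma adjusted p = 1), ZT12 and ZT6 by -1.61 (adjusted p = 0.697), ZT18 and ZT6 by 1.39 (adjusted p = 0.634) and ZT18 and ZT0 by 0.11 (adjusted p = 0.999). The last was -0.22 without replicate 2 of ZT18. The summed level of 8 early response genes, such as Fos and Egr1, which also respond to tissue dissociation, was 8033 to 12017 at ZT12, 13061 to 13958 at ZT0, 10340.5 to 15119 at ZT6 and 13134 to 15309 at ZT18. Summed markers of T, NK and innate lymphoid cells were highest, at 544, in replicate 2 of ZT18, the library with the most Nfil3. They were 352 and 410 at ZT12 and 185 to 420 in the remaining libraries. Id2 alone, a marker on that list, gave 141 to 239 normalised counts of these sums. The part of either set of genes in the Nfil3 values was not tested.

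**Figure D1:**
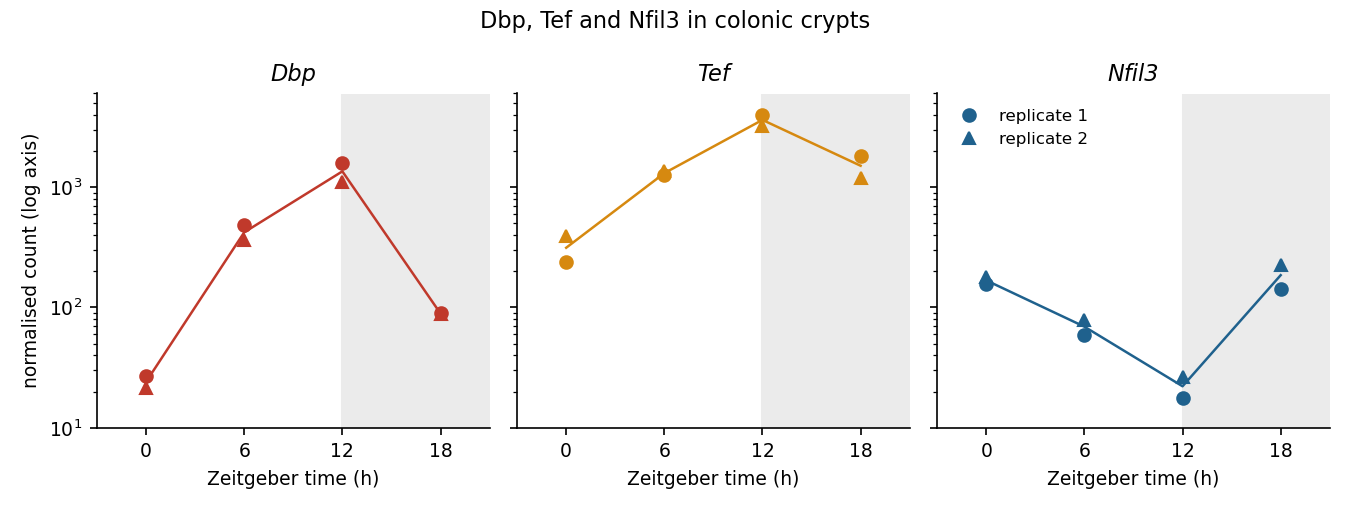
Normalised counts of Dbp, Tef and Nfil3 (log axis) against zeitgeber time in hours, with 1 point per library, a line through the mean of each time point and the dark phase in grey. Dbp and Tef are highest at ZT12, at 1113 to 1593 and 3239 to 4001 normalised counts, where Nfil3 is lowest, at 17.8 to 26.5.

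Read against the background, 9 of 13503 genes tested were called higher at ZT12 than at ZT0, which is 0.0667%, and Dbp and Tef were 2 of these 9. No gene was called lower at ZT12 by limma (0%), while 1345 genes had an unadjusted p under 0.05 in either direction, and edgeR and DESeq2 called 5 and 135 genes in both directions together. Dbp was 1 of 5 genes called higher at ZT6 than at ZT0 (0.037%, against 0.00741% called lower) and 1 of 4 called lower at ZT18 than at ZT12 (0.0296%). Separation of the libraries was common, since 20.7% of genes were higher without overlap at ZT12 than at ZT0 and 20.3% were lower. Between ZT18 and ZT0 these shares were 13.6% and 13.9%, and limma called none of the 3 genes, with 0 genes called over the whole table, 678 at an unadjusted p under 0.05 and 0 in edgeR. DESeq2 called 56 genes there, with Dbp (adjusted p = 0.000365) and Tef (adjusted p = 2.17e-10) among them. Between ZT18 and ZT6 limma called 0.0222% of genes in each direction and none of the 3 factors.

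A 24 h cosine was fitted to all genes to give each a peak time and an amplitude, which is the log2 distance between its mean and its peak. Dbp peaked at 10.6 h (SE 0.18), and its amplitude was 3.07 (SE 0.14, limma adjusted p = 4.01e-05), the smallest p-value of the 13503 genes and the third largest amplitude. Tef reached its fitted peak at 12.2 h (SE 0.34), with an amplitude of 1.78 (SE 0.16, limma adjusted p = 0.00438). Nfil3 had an amplitude of 1.60 (SE 0.27) with a peak at 22.3 h (SE 0.65), and was not called (limma adjusted p = 0.216, unadjusted p = 0.000518). An F-test over the 4 time points, which assumes no shape, gave limma adjusted p-values of 0.000732 for Dbp, 0.0141 for Tef and 0.0927 for Nfil3, with 0.0889% of genes called. In the cosine fit 16 genes were called, or 0.118%, and 9.15% had an unadjusted p under 0.05.

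The fitted peaks of Dbp and Nfil3 were 11.7 h apart and those of Tef and Nfil3 10.1 h apart, while Dbp preceded Tef by 1.59 h. Over 20 settings of the processing the peak of Dbp stayed between 10.5 and 10.7 h, that of Tef between 11.7 and 12.4 h and that of Nfil3 between 21.8 and 23.0 h. Sampling every 6 h limits how finely peak times can be placed. An exact two-sided rank test against a 24 h order gave p = 0.0190 for Dbp and for Tef, the smallest value that 8 libraries allow. The exact rank test gave p = 0.114 for Nfil3, with a best order that peaked at 21 h. That order ranks ZT0 and ZT18 equally, above ZT6 and ZT12, and the Nfil3 libraries followed it without exception. A lower value was not possible at that order, so this result cannot show that Nfil3 lacks it. After adjustment over all genes each exact p became 0.878, and 2.06% of genes were under 0.05 before adjustment. With a smallest possible exact p of 0.0190, a gene could pass only if a far larger share of genes reached that value. The adjusted exact p therefore says little about Dbp, Tef or Nfil3.

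**Figure D2:**
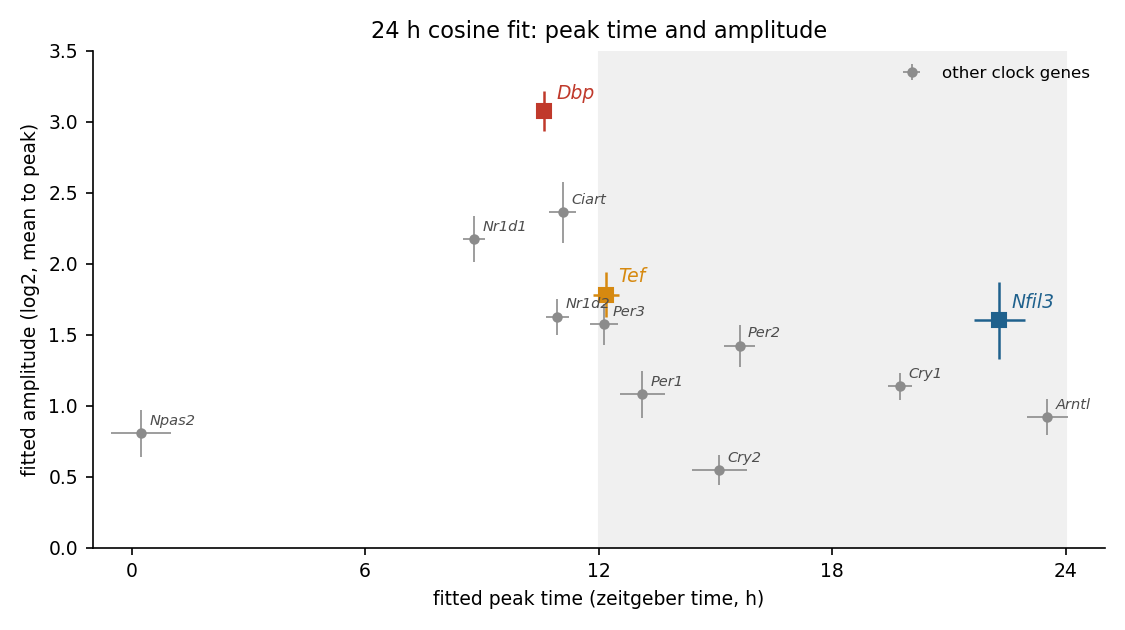
Amplitude of the 24 h cosine fit (log2, mean to peak) against fitted peak time in hours for Dbp, Tef, Nfil3 and clock genes of the lists with an amplitude over 0.5, with bars for the SE and the dark phase in grey. Dbp at 10.6 h and Tef at 12.2 h stand beside Ciart, Nr1d2 and Per3, and Nfil3 at 22.3 h stands between Cry1 and Arntl.

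The balance of the activators over the repressor was described as a log2 ratio of normalised counts within each library, without a test. From ZT0 to ZT18, Dbp over Nfil3 averaged -2.75, 2.59, 5.87 and -1.01, so that Nfil3 had the larger count in both ZT0 and both ZT18 libraries. Tef over Nfil3 averaged 0.86, 4.23, 7.31 and 3.02 at the same times, with Tef the larger count in all 8 libraries. These ratios are not corrected for length, and per kilobase of exon Nfil3 exceeded Tef in both ZT0 libraries (77.0 and 88.9 against 30.2 and 49.6 normalised counts per kb). Tef over Dbp averaged 3.61, 1.64, 1.43 and 4.03 in the same order, so that their ratio was smallest at ZT12, where both were highest. Over the 8 libraries, which share their depth and time points across genes, the Pearson correlation of log2 values was 0.88 for Dbp and Tef, -0.92 for Dbp and Nfil3 and -0.74 for Tef and Nfil3.

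**Figure D3:**
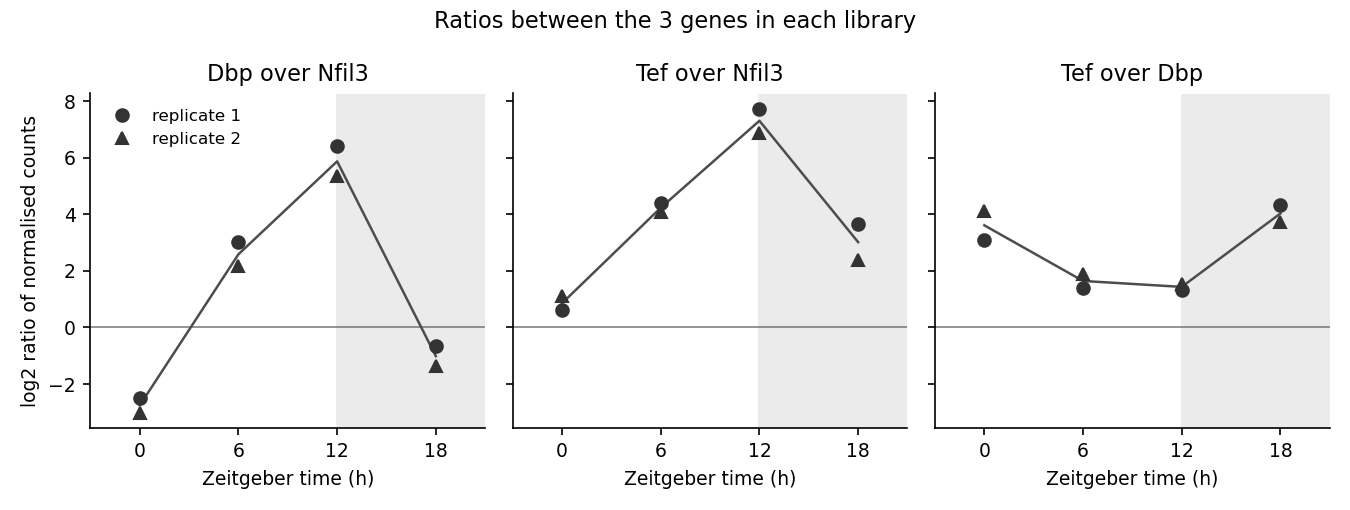
Log2 ratio of normalised counts against zeitgeber time in hours for Dbp over Nfil3, Tef over Nfil3 and Tef over Dbp, with 1 point per library, a line through the means, a rule at 0 for equal counts and the dark phase in grey. Dbp over Nfil3 changes sign, from a mean of -2.75 at ZT0 to 5.87 at ZT12, whereas Tef over Nfil3 stays above 0, in counts not corrected for gene length.

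Levels of different genes were compared per kilobase of exon. At ZT0 the mean was 82.9 normalised counts per kb for Nfil3, 39.9 for Tef and 8.06 for Dbp, and the libraries of the 3 genes did not overlap. At ZT12 it was 460.1 for Tef, 452 for Dbp and 10.9 for Nfil3, with Tef and Dbp overlapping. At these times Dbp lay above 14.5% and 86.9% of genes, Tef above 37.5% and 87.2%, and Nfil3 above 53.3% and 17.98%. With the length of the longest coding transcript instead of all exons, the mean of Tef was 71.2 per kb at ZT0 and overlapped with Nfil3, while the order of the means at ZT0 stayed the same.

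The genes around this circuit were taken from lists of the clock and of known targets. In the E-box arm, the activators and repressors acting at E-boxes, 1 of 6 genes tested was called in the cosine fit, against 0.118% of all genes tested. That gene was Ciart, a repressor of the BMAL1 and CLOCK pair. Ciart rose from 14.9 and 18.7 normalised counts at ZT0 to 441 and 407 at ZT12, a log2 difference of 4.59 (SE 0.43, limma adjusted p = 0.00557). Arntl, which encodes BMAL1, peaked at 23.5 h and was not called (amplitude 0.92, limma adjusted p = 0.0831). Npas2, which encodes a partner of BMAL1, peaked at 0.24 h and was not called either (amplitude 0.81, limma adjusted p = 0.304). The median amplitude of this list was 0.68, against 0.23 over all genes tested.

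The REV-ERB and ROR arm holds receptors known to bind elements with the core letters matched in the Nfil3 promoter window. Its repressors Nr1d1 and Nr1d2 were called in the cosine fit. They peaked at 8.80 h (SE 0.29) and 10.9 h (SE 0.30), with amplitudes of 2.17 and 1.63 (limma adjusted p = 0.00238 for both). Nr1d1 rose from 280.1 and 137 normalised counts at ZT0 to 1685 and 1306 at ZT12, and Nr1d2 from 283 and 226 to 2630.1 and 1874. Rora lay between 3.70 and 29.0 normalised counts, with an amplitude of 0.29 (limma adjusted p = 0.956).

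Among clock genes with known D-boxes, 5 of 7 were called in the cosine fit, namely Per2, Per3, Cry1, Nr1d1 and Nr1d2. Limma called 4 of 7 higher at ZT12 than at ZT0. Over all genes tested these limma shares were 0.118% and 0.0667%. Between ZT12 and ZT0, edgeR called 2 of the 7 and DESeq2 6. The period genes, which encode repressors of the clock, peaked at 12.1 h for Per3 (amplitude 1.57, limma adjusted p = 0.00438), 13.1 h for Per1 (1.08, adjusted p = 0.142) and 15.6 h for Per2 (1.42, adjusted p = 0.0123). Per1 was called between ZT12 and ZT0, by 2.07 (SE 0.25, limma adjusted p = 0.0269). Cry1, a repressor known to peak late, peaked at 19.7 h with an amplitude of 1.14 (limma adjusted p = 0.00263). The list's median log2 difference between ZT12 and ZT0 was 2.07, against 0.01 over all genes, and its members Nr1d1, Nr1d2 and Rora also stand in the previous list.

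Known outputs of the PAR bZIP factors in liver, kidney and gut, mainly detoxification enzymes and transporters, gave no call in the limma fit, with 0 of the 9 tested of 15 listed. Only 0.118% of all genes tested were called in that fit, so 0 of 9 says little about these genes. At an unadjusted p under 0.05, 2 of the 9 passed the cosine fit, against 9.15% of all genes tested. In edgeR and DESeq2, 0 were called as well. Ppara, a lipid-sensing receptor, had the largest amplitude, 0.97 (SE 0.39, limma adjusted p = 0.584), with 709 and 173 normalised counts at ZT12 against 61.6 and 150.2 at ZT0. Pdxk, which makes active vitamin B6, had an amplitude of 0.62 (SE 0.22, limma adjusted p = 0.543), and its ZT12 libraries differed as well, at 551 and 304. The median log2 difference between ZT12 and ZT0 of this list was 0.27.

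**Figure D4:**
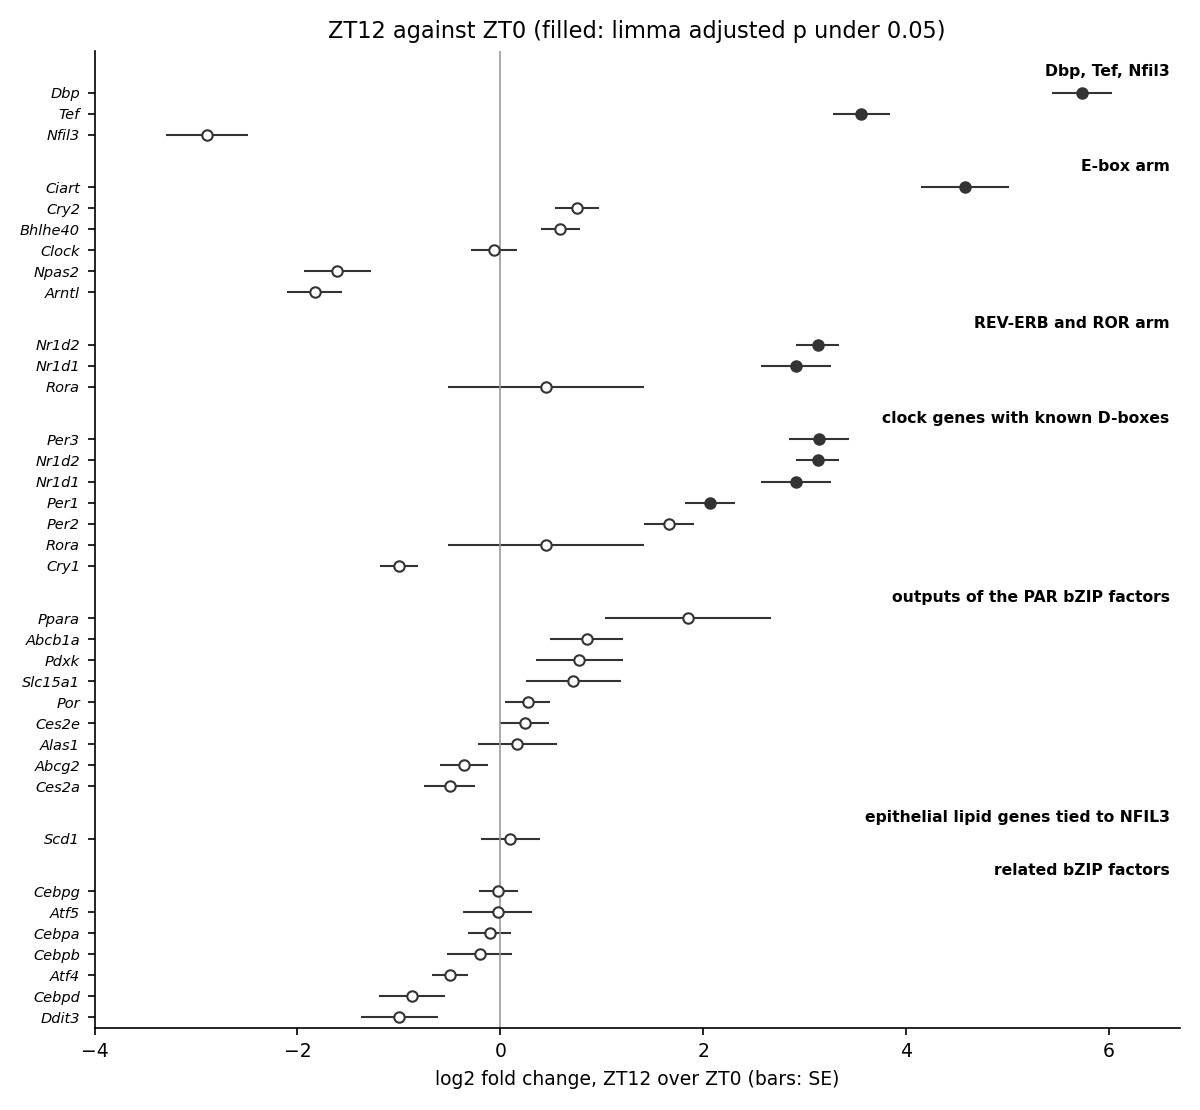
Log2 fold change of ZT12 over ZT0 with its SE for Dbp, Tef, Nfil3 and tested genes of the lists, grouped by list, where filled points have a limma adjusted p under 0.05. Dbp at 5.74 and Tef at 3.56 are filled, Nfil3 at -2.89 is open, and the outputs of the PAR bZIP factors are all open.

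The genes whose pattern was most like each factor were found by the Pearson correlation of log2 values over the 8 libraries, among 11085 genes with a mean of at least 50, as a description. For Dbp these were 0610005C13Rik (0.990), Nr1d2 (0.984) and Ciart (0.974), and among the most opposite were Rad54l (-0.97) and Shf (-0.96). For Tef they were Slc9a3 (0.979), the apical sodium and proton exchanger NHE3, with Zfp467 (0.977) and Erg28 (0.973), and the most opposite were Cdca8 (-0.97), Rrp36 (-0.97) and Tbccd1 (-0.97). Slc9a3 had a mean of 4369 normalised counts at ZT0 and 11080.2 at ZT12, with a cosine amplitude of 0.67 that was not called (limma adjusted p = 0.154). For Nfil3 they were Stk16 (0.960), Mpzl1 (0.958) and Nr4a2 (0.949), and the most opposite were Slc36a1 (-0.96), C330007P06Rik (-0.96) and Fubp3 (-0.96). Slc36a1, a proton-coupled amino acid transporter, had a mean of 1523 at ZT0 and 4548 at ZT12 (cosine fit, limma adjusted p = 0.304).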

How the data were processed

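Colonic crypt RNA was sequenced in 8 libraries, 2 at each of 4 time points, grouped by the labels. Per the labels and the study's methods, the authors aligned reads to GRCm38 with STAR and deposited normalised counts of 14247 genes, a signal obtained by dividing read counts by DESeq2 size factors. The labels and the methods name different library kits. The deposited table also holds the authors' own comparisons, as log2 fold changes with p-values and a test score, which were not used. No column was left unmapped (0).

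Values were analysed as log2(normalised count + 1) in the 13503 genes whose mean reached 10, with limma 3.58.1 (lmFit, eBayes with trend) in R 4.3.3 and Benjamini-Hochberg adjustment over all genes tested. A 24 h cosine and 6 contrasts between time points were fitted on all 8 libraries, and calls were made at an adjusted p under 0.05. The exact rank test followed the JTK idea. Whole reads could be recovered from the normalised counts for 100.0% of values, within a tolerance of 0.1 read, and were tested with edgeR 4.0.16 and DESeq2 1.42.0 as alternatives, which called 12 and 189 genes in the cosine fit against 16. The scripts were tested on simulated data.

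Gene models were from GENCODE M21, matched by identifier for 14239 genes, and promoters from RefSeq. Named genes were the 3 factors and Hlf, which is not analysed here, the called genes of each list with the 2 others of largest amplitude, and for each factor the 3 most alike and 3 most opposite genes. Results for some genes that meet this rule are not reported here. The members and lists were chosen with earlier results of these data known. Other alternatives were the pseudocount, filter, scaling, the replicate number as a block, fits on the compared libraries alone and leaving out each library. Leaving out 1 library leaves a lone library in its time point, which is then assumed to vary like the others.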

Additional observations from a re-analysis of the deposited data

How the results depend on the processing

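With 2 libraries per time point, calls depended on how the spread was estimated. The Dbp amplitude and its ZT12 to ZT0 difference passed in every alternative run. Without the eBayes trend, Tef lost its calls (amplitude 1.78, limma adjusted p = 0.158, and ZT12 to ZT0 3.56, adjusted p = 0.153), and 1 gene in all was called in the cosine fit and 1 between ZT12 and ZT0. The Dbp difference between ZT6 and ZT0 was also lost there (adjusted p = 0.077) and in a fit on the compared libraries alone (0.136). In DESeq2, Nfil3 passed (amplitude 1.59, adjusted p = 0.0018, and ZT12 to ZT0 -2.93, adjusted p = 3.39e-06), with 189 and 135 genes called in all, and the E-box arm had 4 and 3 calls. In edgeR, 5 genes were called between ZT12 and ZT0, 1 in the REV-ERB and ROR arm and 2 among the D-box clock genes, and a fit on the 4 compared libraries alone also called 5. Leaving out 1 library each gave 6 to 18 calls in the cosine fit and 5 to 13 between ZT12 and ZT0. It gave Nfil3 differences between ZT12 and ZT0 of -3.17 to -2.61, Tef differences between ZT18 and ZT6 of -0.14 to 0.49, and Nfil3 differences between ZT18 and ZT0 of -0.22 to 0.44. The exact rank test p was then 0.0381 to 0.0762 for Dbp and Tef and 0.0381 to 0.229 for Nfil3. The smallest p that this exact test allows rises when 1 library is left out. Higher rank test values there cannot be read as a loss of order. The cause of the other changes was not tested. With the longest coding transcript as the length, chosen after seeing the data, Dbp and Tef were 736 and 822 per kb at ZT12.

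Libraries with the same replicate number did not deviate together (correlations of -0.29 to 0.22), so the number is not taken to pair them. With the replicate block, the log2 difference between ZT12 and ZT0 had a limma adjusted p of 0.000288 for Dbp, 0.00455 for Tef and 0.072 for Nfil3, the cosine fit called 12 genes, and no call of the 3 factors changed.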

Other observations

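The bZIP factors related to the 3 genes were examined as a list of 8, of which 7 were tested. In the cosine fit 0 were called by limma, edgeR or DESeq2, and 1 had an unadjusted limma p under 0.05. Over all genes tested these limma shares were 0.118% and 9.15%. All 7 had a negative log2 difference between ZT12 and ZT0, with a median of -0.20. Over all genes tested, 6562 of 13503 had a negative difference. Limma, edgeR and DESeq2 called 0 of the 7 between ZT12 and ZT0, where limma called 0.0667% of all genes higher and 0% lower. At an unadjusted limma p under 0.05 there were 3 of the 7, and 1345 of the 13503 genes tested. Cebpd, a C/EBP factor, had the largest amplitude, 0.58 (SE 0.17, limma adjusted p = 0.495), with 724 and 454 normalised counts at ZT0 and 269 and 364 at ZT12. Ddit3, the stress factor CHOP, had an amplitude of 0.50 (SE 0.22, limma adjusted p = 0.614), with 301 and 387 at ZT0 and 116 and 250.2 at ZT12. Hlf, the third PAR bZIP gene, is not analysed here.

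Of 4 epithelial lipid genes tied to NFIL3, 1 was tested. That gene, Scd1, a fatty acid desaturase, had a mean of 1037 ± 111 (SD, n = 2) normalised counts at ZT0 and 1122 ± 246 (SD, n = 2) at ZT12, a log2 difference of 0.10 (SE 0.29, limma adjusted p = 0.923), and its cosine fit was not called by limma (adjusted p = 0.770), edgeR or DESeq2.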
